A study of Mus musculus with 2 samples.

Results

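The genes described here are 10 genes of vessel growth and vessel identity, namely Vegfa, Vegfc, Angpt1, Angpt2, Kdr, Flt1, Tek, Pecam1, Cdh5 and Emcn. They were taken by their gene symbol from the count tables of 2 tissue sections of mouse fracture callus, in which 19430 named genes were measured. Visium spatial transcriptomics for formalin-fixed tissue hybridizes pairs of gene-specific probes to a section and captures them on a grid of barcoded spots, 100 µm apart, each of which can hold several cells. A unique molecular identifier (UMI) thus counts 1 captured probe pair, so levels are set side by side here for the same gene in different places and never between genes. Both sections were cut from 1 paraffin block that held 2 calluses, 1 from a control mouse and 1 from an Nf1Postn littermate. The sample labels number the sections as biological replicates.

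The control mouse was Nf1+/flox without Postn-cre, and thus kept both Nf1 alleles in its cells. The Nf1Postn mouse was Postn-cre;Nf1flox/-, with 1 Nf1 allele lost in every cell and the other removed where the periostin promoter drives Cre recombinase, which includes the periosteum. Both were females aged 8 weeks. Each had a distal tibia osteotomy stabilized with an intramedullary pin and was killed on day 10, and the callus was fixed in formalin and decalcified in EDTA. With 1 mouse per genotype there is no replicate spread between animals, and no p-value is given. The 95% intervals below are exact and cover counting error only.

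During bone repair, vessels grow into the callus and cartilage is replaced by bone where they enter. Vascular endothelial growth factors such as Vegfa act on the endothelial receptors Kdr (VEGFR2) and Flt1 (VEGFR1), and hypertrophic chondrocytes, marked by the collagen Col10a1, are a known source of Vegfa in the growth plate and callus. The angiopoietins Angpt1 and Angpt2 act on the receptor Tek (TIE2), which controls vessel stability, and cartilage before hypertrophy is known as a tissue without vessels.

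The spots under tissue numbered 6380, of which 5 had no genotype label. In the control callus, 1700 spots of section 1 had a median of 7053 UMIs and 1778 spots of section 2 a median of 5718.5. In the Nf1Postn callus, 1341 and 1556 spots had medians of 2030 and 3239.75 UMIs. The Nf1Postn spots were thus the shallower in both sections, and levels were taken as CPM, the share of a gene in the pooled UMIs of a set of spots, scaled to a fixed total in the usual way. A total of 2711 spot barcodes occurred in both sections, since both were placed on arrays with the same barcode set. The members gave between 611 UMIs (Emcn) and 6655 UMIs (Cdh5) over both sections, and no spot held more than 20 UMIs of any of them.

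Promoter sequences from RefSeq (table of build GRCm38.p6, placed in GRCm39 by exact match) were found for 6 of the 10 members, namely Vegfa, Vegfc, Kdr, Flt1, Tek and Emcn. Those of Vegfa, Kdr and Flt1 are shown because the ligand and its 2 receptors differed in where they were measured, as described below. Each is the stretch before the start of the gene that no annotated exon touches, written 5′ to 3′ on the minus strand of the genome, on which all 3 genes lie. A longer annotated Kdr transcript spans the Kdr stretch as intron. Capitals mark GGAA or its reverse complement TTCC, the core of the sites bound by ETS factors, a family with known roles in endothelial cells. The Vegfa stretch is chr17:46343310-46343553, that of Kdr is chr5:76139119-76139365 and that of Flt1 is chr5:147662827-147663071.
Vegfa: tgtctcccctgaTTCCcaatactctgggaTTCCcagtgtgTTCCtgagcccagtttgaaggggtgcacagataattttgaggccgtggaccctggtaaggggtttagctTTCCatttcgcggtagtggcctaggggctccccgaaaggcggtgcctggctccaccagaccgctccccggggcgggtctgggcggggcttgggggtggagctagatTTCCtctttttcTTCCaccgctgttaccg
Kdr: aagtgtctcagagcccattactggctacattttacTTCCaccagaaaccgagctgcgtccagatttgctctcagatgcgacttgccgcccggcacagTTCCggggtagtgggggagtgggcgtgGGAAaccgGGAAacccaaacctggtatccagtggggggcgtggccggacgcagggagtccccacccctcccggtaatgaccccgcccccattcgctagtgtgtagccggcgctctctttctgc
Flt1: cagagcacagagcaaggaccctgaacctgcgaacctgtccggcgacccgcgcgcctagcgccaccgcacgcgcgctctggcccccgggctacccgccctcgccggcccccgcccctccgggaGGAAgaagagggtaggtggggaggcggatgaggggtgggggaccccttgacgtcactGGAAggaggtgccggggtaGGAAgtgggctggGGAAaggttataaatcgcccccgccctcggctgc
Over the full 250 bases, the core was matched 6 times in Vegfa, 4 times each in Kdr, Flt1 and Emcn, 2 times in Tek and 1 time in Vegfc, and 93.4% of 32851 promoters held at least 1 match, with a median of 3. The letters ACGTG, the core of the hypoxia response element, were found on neither strand in these 250 bases of any of the 6, against 16.6% of all promoters that held them. The related GCGTG was matched 2 times in Kdr and 1 time each in Flt1 and Emcn, and 28.2% of promoters held it. For Vegfa a second start was listed, whose 250 bases held 1 match of ACGTG and 1 of GCGTG. These matches describe letters in a window and not bound sites.

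The first comparison set the Nf1Postn callus against the control callus. None of the 10 members was at least 2-fold apart in the same direction in both sections, whereas of the 11851 genes that reached 50 UMIs in both sections 4.21% were at least 2-fold higher in Nf1Postn by this rule and 1.58% were at least 2-fold lower. All 10 members had the UMIs needed. In bulk values over many spots, fewer cells of a type and less RNA per cell cannot be told apart.

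Among the ligands, Vegfa (chr17:46327919-46343295, mm39), the main growth factor of endothelial cells, went in opposite directions in the 2 sections. Its level was 128 CPM (interval 122 to 135) in the control callus and 92.7 CPM (82.9 to 103) in the Nf1Postn callus of section 1. In section 2 the levels were 105 CPM (99.5 to 111) and 121 CPM (113 to 131). The log2 ratio of Nf1Postn over control was thus -0.47 (-0.65 to -0.30) and 0.21 (0.07 to 0.34), with intervals on opposite sides of 0 in sections of 1 block. Vegfc (chr8:54530641-54640131), a ligand of lymphatic and blood vessel growth, had 21.0 and 22.5 CPM in control and Nf1Postn of section 1 and 23.7 and 17.7 CPM in section 2. Angpt1 (chr15:42288119-42540373), a Tek agonist made by cells around vessels, had 43.7 and 34.9 CPM in section 1 and 33.7 and 28.4 CPM in section 2, lower in Nf1Postn both times. Angpt2 (chr8:18740279-18791578), made by endothelial cells and often opposed to Angpt1, had 21.2 and 22.2 CPM in section 1 and 25.0 and 15.2 CPM in section 2.

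Among the receptors, Kdr and Flt1 were lower in Nf1Postn in both sections and Tek was not. Kdr (chr5:76093487-76139118) had 68.4 CPM in control and 59.2 CPM in Nf1Postn of section 1, and 76.1 and 61.8 CPM in section 2. Flt1 (chr5:147498414-147662821), which also acts as a trap for Vegfa, had 115 and 105 CPM in section 1 and 116 and 80.0 CPM in section 2. Their log2 ratios were -0.21 and -0.30 for Kdr and -0.13 and -0.53 for Flt1. For section 1 the intervals of both included 0 (-0.43 to 0.01 for Kdr and -0.30 to 0.03 for Flt1). Tek (chr4:94627526-94763213) was the one member with a ratio above 0 in both sections, at 28.5 and 33.2 CPM in section 1 and 29.6 and 31.9 CPM in section 2, and both intervals (-0.09 to 0.53 and -0.15 to 0.37) included 0.

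The surface and junction genes of endothelial cells were level between genotypes in section 1 and lower in Nf1Postn in section 2. Cdh5 (chr8:104828257-104871143), the cadherin of endothelial junctions, had 190 and 191 CPM in control and Nf1Postn of section 1 and 200.1 and 165 CPM in section 2. Pecam1 (chr11:106545043-106641454), the adhesion molecule CD31, had 82.0 and 80.6 CPM in section 1 and 90.3 and 59.2 CPM in section 2. Emcn (chr3:137046828-137137946), a sialomucin of veins and capillaries, had 18.3 and 20.5 CPM in section 1 and 18.0 and 12.4 CPM in section 2. The section 2 ratios were -0.27 (-0.38 to -0.17) for Cdh5, -0.61 (-0.79 to -0.44) for Pecam1 and -0.54 (-0.94 to -0.15) for Emcn. In all, 1 member was above 0 in both sections, 4 were below 0 in both and 5 were mixed, while 30.0% of all tested genes were above 0 in both and 40.6% below 0 in both. The median ratio over all tested genes was itself 0.06 in section 1 and -0.21 in section 2. With trimmed mean of M values (TMM) scaling, which moved the section 1 ratios down by 0.28, Tek was at -0.06 in section 1 and 0.14 in section 2, Cdh5 at -0.27 and -0.24, and Vegfa at -0.75 and 0.24. Vegfc, Angpt2 and Emcn, which were mixed without it, were then below 0 in both sections too.

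**Figure D1:**
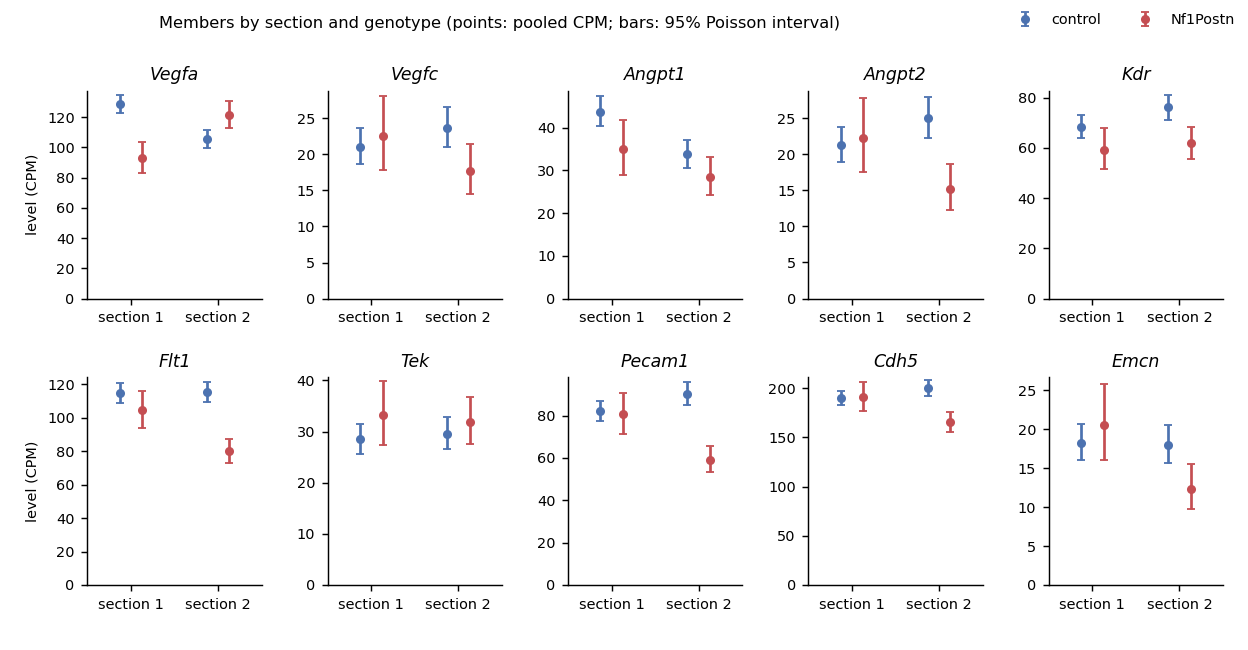
Level of each member (y axis, CPM, from 0) in the control and Nf1Postn callus of section 1 and section 2 (x axis). Points are pooled values and bars exact 95% Poisson intervals, and Vegfa is lower in Nf1Postn in section 1 (92.7 against 128 CPM) and higher in section 2 (121 against 105 CPM).

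The calluses differed in other tissue markers. The summed level of 7 muscle genes was 15539 CPM in control and 68734 CPM in Nf1Postn of section 1, and 23112 and 122854 CPM in section 2. The summed level of 5 red cell genes was 161 and 1818 CPM in section 1 and 291 and 1643 CPM in section 2, and that of 7 cartilage genes was 47215 and 4119 CPM in section 1 and 29575 and 8367 CPM in section 2. None of these lists had a marker at 0 in either callus. Their part in the members' ratios was not tested. Without the muscle-rich spots, and likewise without the red cell-rich and granulocyte-rich spots, 0 of 10 members passed the rule. The count was 0 with all spots as well, so it cannot show that part.

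In lists of related genes few passed the 2-fold rule, and their median ratios here are over both sections pooled. Of all tested genes, 4.21% were higher and 1.58% lower by the rule. Of 18 pan-endothelial genes, 0 passed the rule, and their median ratio was -0.33 against -0.09 over all tested genes. By section that list's median was -0.07 and -0.44, beside 0.06 and -0.21 over all tested genes. In section 2 every gene of the list was below 0. Of 7 other VEGF and TIE ligands, receptors and co-receptors, 0 passed, with a median of -0.26, and of 13 tip cell, Notch and arterial genes tested, 0 passed, with a median of -0.36. Of 11 mural cell genes, 2 were lower, Cspg4 (NG2, made by pericytes and by chondrocytes; -1.37 and -1.08) and Cnn1 (calponin of smooth muscle; -1.90 and -1.72), and the median was -0.30. Of 10 antiangiogenic genes tested, Cnmd, chondromodulin of cartilage, was lower (-3.30 and -1.71). Of 4 lymphatic genes tested, Reln was higher (1.41 and 1.09), and of 13 hypoxia genes, Egln3, a prolyl hydroxylase induced by hypoxia and also made in muscle, was higher (1.42 and 1.91). The medians of these lists were -0.15 and -0.16. Flt4 (-0.36 and -1.30) and Pdpn (-0.12 and -0.80) were below 0 in both sections, and Prox1 was mixed. Most hypoxia genes were below 0 in both sections, among them Hif1a (-0.86 and -1.02), while Egln3 and Pfkfb3 were above 0 in both. Of all tested genes, 40.6% were below 0 in both sections and 30.0% above. The genes short of the rule were named after their values were seen.

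The second comparison followed the members outward from hypertrophic cartilage. A spot was called Col10a1-rich when it had at least 1000 UMIs, at least 5 Col10a1 UMIs and at least 1060 CPM of Col10a1. That level marks the top 5% of all spots with at least 1000 UMIs. The control callus held 205 such spots in section 1 and 53 in section 2. Among spots with at least 5 Col10a1 UMIs, the last inside were at 1063, 1064 and 1066 CPM and the first outside at 1051, 1043 and 1037 CPM. In the Nf1Postn callus no spot had more than 2 (section 1) or 3 (section 2) Col10a1 UMIs. None was rich for want of 5 UMIs, and distance was measured in the control callus alone. In a shallow spot fewer than 5 UMIs can already exceed 1060 CPM, so the minimum and not the level could decide there. Over all spots, Col10a1 was at 45.6 and 32.9 CPM in Nf1Postn and 344 and 144 CPM in control (sections 1 and 2). Spots were binned by the distance to the nearest rich spot, and the 19 spots beyond 2000 µm in section 1 were too few to read as a bin of their own.

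Vegfa was highest in the Col10a1-rich spots and lower with distance. In section 1 its level was 208 CPM (181 to 238) in rich spots, 155 CPM up to 250 µm, 112 CPM from 250 to 500 µm, 105 CPM from 500 to 1000 µm and 107 CPM from 1000 to 2000 µm. In section 2 the corresponding levels were 168 CPM (121 to 227), 132, 118, 96.2 and 73.7 CPM. The rich spots were 1.97-fold above the spots beyond 1000 µm in section 1 and 2.29-fold above them in section 2. This was just short of the 2-fold rule in section 1, and with TMM scaling Vegfa passed it. Against these spots, 1.94% of 7168 genes with enough UMIs were at least 2-fold higher in rich spots of both sections.

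Tek and Vegfc had the opposite order. Tek was at 11.5 CPM (from 12 UMIs) in rich spots of section 1, then at 23.6, 24.5, 39.1 and 41.2 CPM with distance. In section 2 it was at 7.99 CPM (0.97 to 28.9, from 2 UMIs), then at 19.7, 27.6, 30.4 and 42.3 CPM. The level was thus higher at every step outward in both sections. Vegfc was at 8.59 CPM (3.93 to 16.3) in rich spots of section 1 and at 16.9, 21.8, 26.5 and 26.0 CPM with distance. In section 2 it was at 7.99 CPM (0.97 to 28.9, from 2 UMIs) and then at 18.6, 22.3, 23.6 and 32.4 CPM. These 2 were the members at least 2-fold lower in rich spots than beyond 1000 µm in both sections, of 8 with enough UMIs, and 8.51% of all tested genes were lower by this rule. The minimum counts rich and far spots together, and both genes reached it mostly through the far spots. Tek had 12 and 2 UMIs in rich spots and 65 and 89 beyond 1000 µm. Vegfc had 9 and 2 UMIs in rich spots and 42 and 68 beyond 1000 µm. The log2 ratios were -1.76 (-2.79 to -0.86) and -2.40 (-5.47 to -0.50) for Tek and -1.55 (-2.77 to -0.49) and -2.01 (-5.08 to -0.10) for Vegfc, beside a median of -0.24 over all tested genes.

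The other receptors did not follow Tek. Kdr was at 58.2 and 59.9 CPM in rich spots of sections 1 and 2 and at 65.8 and 75.3 CPM beyond 1000 µm, with log2 ratios of -0.18 (-0.65 to 0.29) and -0.33 (-1.20 to 0.44). Its highest bin was 500 to 1000 µm in both sections, at 83.2 and 84.0 CPM. Flt1 was at 115 and 148 CPM in rich spots and at 129 and 119 CPM beyond 1000 µm, with ratios of -0.17 (-0.51 to 0.16) and 0.31 (-0.23 to 0.81). For both receptors the intervals of rich and far spots overlapped in each section.

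Among the surface and junction genes, Cdh5 was higher at every step outward in both sections, from 163 to 230 CPM in section 1 and from 136 to 224 CPM in section 2. Its log2 ratio of rich over far spots was -0.44 (-0.71 to -0.18) and -0.72 (-1.26 to -0.21). Pecam1 was at 57.3 and 79.9 CPM in rich spots and at 97.4 and 123 CPM beyond 1000 µm, with ratios of -0.77 (-1.22 to -0.33) and -0.62 (-1.36 to 0.03). Both were thus lower in rich spots than beyond 1000 µm, by less than 2-fold. Pecam1 did not rise at every step, and its lowest bin in section 2 was up to 250 µm, at 62.3 CPM. Emcn had 8 and 5 UMIs in the rich spots and Angpt2 15 and 11, and neither reached the minimum over rich and far spots together in section 1. Angpt1 was at 54.4 and 32.0 CPM in rich spots and at 35.3 and 43.5 CPM beyond 1000 µm, with ratios of opposite sign in the sections (0.63 and -0.45).

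**Figure D2:**
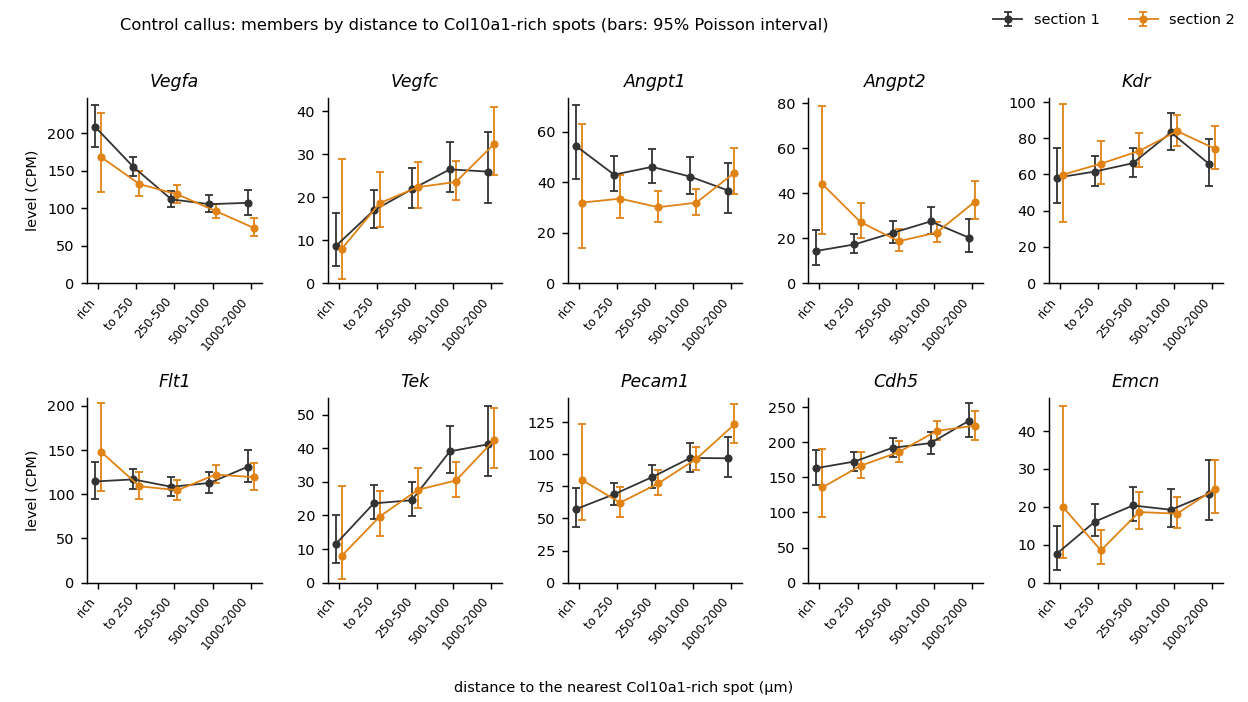
Level of each member (y axis, CPM, from 0) in the control callus by distance to the nearest Col10a1-rich spot (x axis, µm), with 1 line per section and bars for exact 95% Poisson intervals. Vegfa is highest in the rich spots (208 and 168 CPM), Tek is lowest there (11.5 and 7.99 CPM), and Flt1 has no common order of bins in the sections.

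Tissue makeup and depth changed along the same axis. From rich spots to the bin of 1000 to 2000 µm, the summed level of 7 cartilage genes went from 121653 to 5017 CPM in section 1 and from 128192 to 3641 CPM in section 2, and that of 7 muscle genes from 8277 to 57902 CPM and from 12086 to 40567 CPM. The summed level of 6 adipocyte genes went from 227 to 912 CPM and from 124 to 415 CPM, with Lep at 0 in rich spots of section 1 and Plin1, Cidec and Lep at 0 in those of section 2. The median depth was 4790 UMIs in rich spots of section 1, peaked at 10395 UMIs from 250 to 500 µm and was 4347.5 UMIs from 1000 to 2000 µm. The part of these changes in the members' order was not tested. Tek and Vegfc passed the rule without the muscle-rich spots too. The control callus held only 9 of those spots in section 1 and 1 in section 2, so leaving them out could change little.

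In the gene lists, 3 of 17 pan-endothelial genes tested were lower in rich spots, namely Vwf (von Willebrand factor; -2.89 and -2.02), Ptprb (the phosphatase VE-PTP, a regulator of Tek; -1.44 and -2.62) and Sox17 (an arterial transcription factor; -1.18 and -1.18), and 0 were higher. The median of that list was -0.29 against -0.24 over all tested genes. Of all 7168 tested genes, 8.51% were lower and 1.94% higher by the rule, beside which the counts of these short lists are to be read. Of 10 mural cell genes tested, 5 were lower and 1 higher, with a median of -0.91. The largest were Tagln and Myh11, contractile genes of smooth muscle, at -2.36 and -2.13 and at -2.20 and -1.65, and Cspg4, which was higher at 1.94 and 2.55. Of 5 other VEGF and TIE genes tested, Vegfb, a Flt1 ligand abundant in muscle, was lower (-1.37 and -1.34), and of 10 tip cell, Notch and arterial genes, Gja4, a gap junction gene of arteries, was lower (-1.22 and -1.06). Of 10 hypoxia genes tested, Ndrg1 (-1.22 and -1.07) and Egln3 (-1.72 and -1.32) were lower and 0 were higher. Short of the rule, as Vegfa was, Bnip3, a mitophagy gene induced by hypoxia, was at 1.28 and 0.84. Car9, a carbonic anhydrase induced by hypoxia, was at 1.02 and 1.08 with too few UMIs. Both were named after their values were seen. Of 9 antiangiogenic genes, Cnmd was higher (3.98 and 3.84), and of 2 lymphatic genes tested, 0 passed. The minimum counts rich and far spots together, and the lower genes named here reached it mostly through the far spots. Over both sections, rich spots held 16 UMIs of Vwf, 41 of Ptprb, 41 of Gja4 and 15 of Egln3. The far spots held 279, 367, 277 and 126. Ratios from so few UMIs in rich spots, and fewer still in each section, are imprecise.

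The map of both sections shows how these patterns lie in the tissue. In the control callus of section 1, high Vegfa filled the space between 2 arms of Col10a1-rich spots, where the endothelial genes were low. To set the arms beside other cartilage, the rich spots were compared with 201 cartilage-rich spots that were not Col10a1-rich (the top 5% by the summed level of 7 cartilage genes). These were chosen by their genes and not by place, and how many lay between the arms was not counted. Of the 201, 185 lay in the control callus and 16, all in section 2, in the Nf1Postn callus. Of the 258 Col10a1-rich spots, 95 were cartilage-rich by the same rule, so the 2 groups also differed in cartilage content. The part of that difference in the ratios was not tested. Vegfa was at 208 and 162 CPM in section 1 (log2 ratio 0.36, 0.07 to 0.64) and 168 and 160 CPM in section 2 (0.07, -0.48 to 0.60). Cdh5 was at 163 CPM in Col10a1-rich and 62.4 CPM in the other cartilage-rich spots of section 1, and at 136 and 47.6 CPM in section 2. Flt1 was at 115 and 37.4 CPM in section 1 and at 148 and 47.6 CPM in section 2. These 2 members were at least 2-fold higher in the Col10a1-rich spots of both sections, of 3 with enough UMIs, and 3.89% of 2671 genes tested were higher and 2.13% lower. The ratios were 1.39 (0.99 to 1.80) and 1.51 (0.77 to 2.26) for Cdh5 and 1.61 (1.11 to 2.14) and 1.63 (0.91 to 2.37) for Flt1. Pecam1, from 17 and 19 UMIs in the other cartilage-rich spots, was short of the minimum, with ratios of 2.02 (1.22 to 2.89) and 1.45 (0.47 to 2.44). Within the control callus alone the same 2 members passed, as did 4.25% of 2446 genes as higher and 2.53% as lower, with section 2 ratios of 1.54 (0.80 to 2.29) for Flt1 and 1.69 (0.89 to 2.51) for Cdh5. The section 2 ratio of Vegfa was then -0.09 (-0.65 to 0.44). For Cdh5 and Pecam1 the levels in each section thus rose in 1 order. They were lowest in cartilage-rich spots that were not Col10a1-rich, then came Col10a1-rich spots, then spots beyond 1000 µm.

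**Figure D3:**
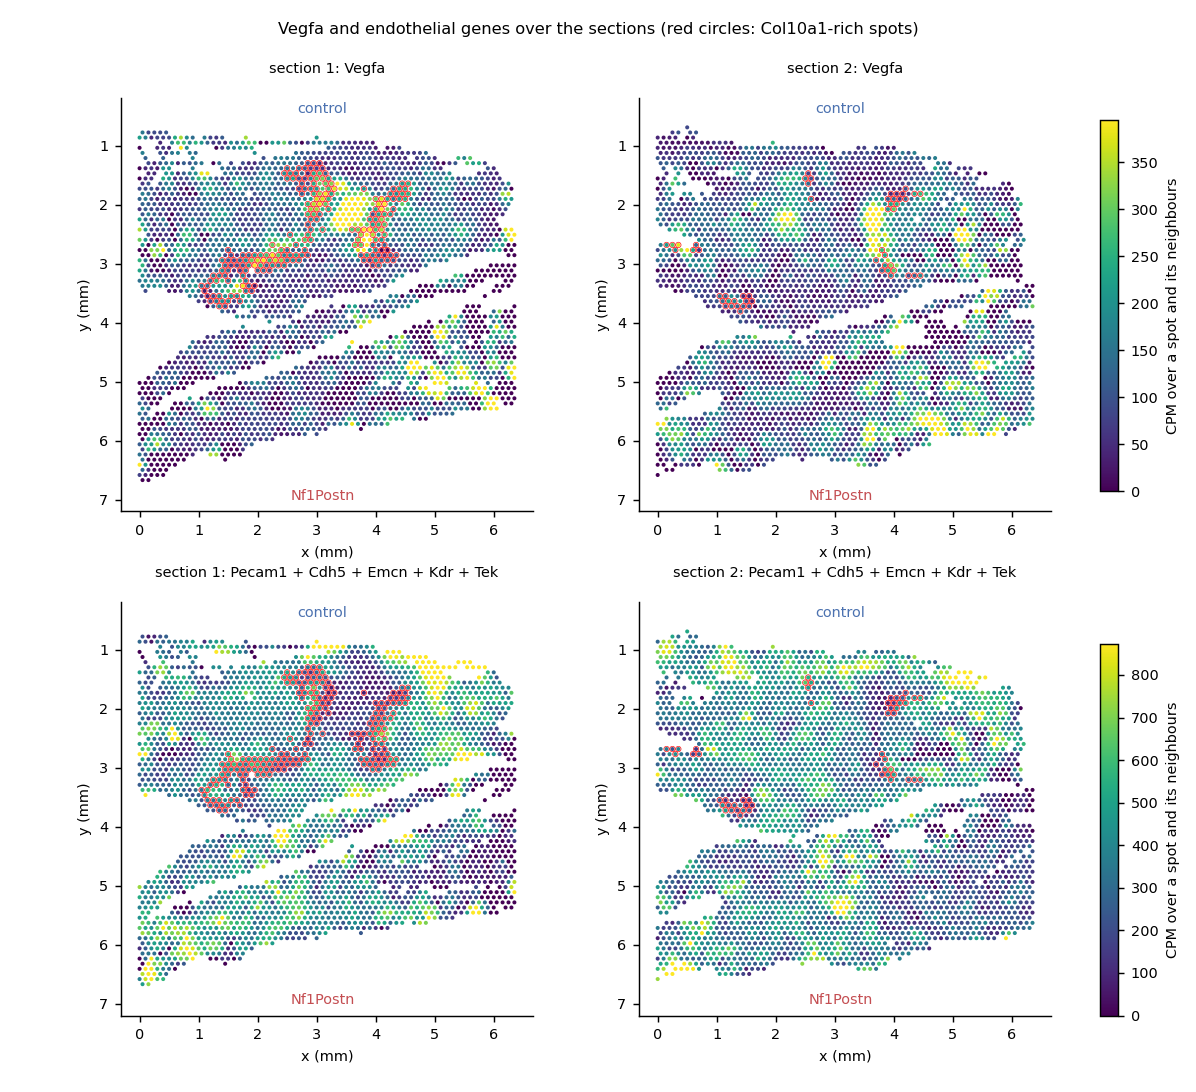
Level of Vegfa (top) and the summed level of Pecam1, Cdh5, Emcn, Kdr and Tek (bottom) over section 1 (left) and section 2 (right), in CPM over a spot and its nearest neighbours, with colours capped at the 98th percentile and axes in mm on the array. Red circles are Col10a1-rich spots, 205 in section 1 and 53 in section 2, and the control callus lies above the Nf1Postn callus.

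The third comparison set spots rich in a tissue's marker genes against the other spots. A class is the top 5% of spots with at least 1000 UMIs by the summed level of a list, with at least 5 UMIs of the list in the spot, which left classes of 76 to 296 spots. It is thus a range of that level and not a cell type, and classes can share spots. Over 12 lists and 10 members, 18 of 120 pairs passed the 2-fold rule, 5 higher and 13 lower. By class, 0.54% to 26.0% of all tested genes were lower by the rule and 0.768% to 5.2% were higher.

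Cartilage-rich spots held 7 of the 13 lower pairs, namely Vegfc, Angpt2, Kdr, Tek, Pecam1, Cdh5 and Emcn, while 19.4% of all tested genes were lower there, 1.72% were higher and their median ratio was -0.61. Cdh5 was at 74.8 CPM in cartilage-rich and 202 CPM in other spots of section 1 and at 51.0 and 195 CPM in section 2. Pecam1 was at 20.2 and 87.8 CPM in section 1 and 28.2 and 82.3 CPM in section 2, and Tek at 7.15 and 31.6 CPM and at 4.03 and 31.5 CPM. With TMM scaling, which takes the fall of most genes into account, Tek (-1.63 and -2.49), Pecam1 (-1.60 and -1.07) and Emcn (-1.43 and -1.57) passed the rule as lower. For Tek and Emcn the minimum was reached mostly through the other spots, and their ratios are imprecise. Among cartilage-rich spots that were not Col10a1-rich, 7.08% and 3.41% held a UMI of Tek in sections 1 and 2. For Emcn the shares were 4.42% and 3.41%. Vegfa was the one member with a higher level in cartilage-rich spots of both sections, at 172 against 116 CPM and 157 against 109 CPM. Its log2 ratios were 0.56 (0.37 to 0.75) and 0.53 (0.25 to 0.80), and with TMM scaling they were 1.08 and 1.01. Of 13 hypoxia genes, 5 were at least 2-fold higher there, namely Ankrd37, Bnip3, Slc2a1, Car9 and Adm, and Epas1 was lower, with a list median of 0.79. Of the 296 cartilage-rich spots, 280 lay in the control callus, and within that callus alone 8 members were lower, with Flt1 added, against 17.6% of 11294 genes.

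Of the 12 classes, spots rich in adipocyte genes had the highest levels of Kdr, Tek, Pecam1, Cdh5 and Emcn in both sections. In these spots 5 of 10 members were at least 2-fold higher against 3.27% of all tested genes. Cdh5 was at 447 CPM in these spots and 179 CPM in others of section 1, and at 457 and 180.2 CPM in section 2. Pecam1 was at 199 and 76.4 CPM and at 223 and 75.5 CPM, Tek at 96.7 and 26.4 CPM and at 79.2 and 28.8 CPM, and Emcn at 47.0 and 17.4 CPM and at 59.4 and 14.8 CPM. Angpt2 was at 45.7 and 20.3 CPM and at 52.2 and 20.8 CPM, and Kdr, at log2 ratios of 0.99 and 1.06, fell just short. Flt1 was higher by 0.52 (0.24 to 0.79) and 0.47 (0.13 to 0.80), and Vegfa was lower by log2 ratios of -0.20 (-0.54 to 0.12) and -0.31 (-0.74 to 0.10). Within the control callus alone Tek, Pecam1, Cdh5 and Emcn were higher by the rule, as were 3.67% of genes, while 1.5% were lower. Within the Nf1Postn callus, with 17 and 44 such spots, Angpt2, Tek, Cdh5 and Emcn were higher, as were 3.08% of genes, while 0.731% were lower.

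The adipocyte list holds Fabp4, a fatty acid binding protein made by fat cells and by capillary endothelial cells, and Fabp4 gave 84.0% of the list's UMIs in these 212 spots. With Fabp4 left out, 56 spots were rich, 46 of them among the 212, and 3 members, Tek, Pecam1 and Cdh5, passed against 4.02% of genes. Their log2 ratios were 1.44 and 1.04 for Tek, 1.04 and 1.19 for Pecam1 and 1.03 and 1.14 for Cdh5. Emcn was then at -0.54 and 2.21, from 4 and 14 UMIs, and Angpt2 at 1.00 and 0.74. The ratios of Tek, Pecam1 and Cdh5 were smaller than with the full list, over fewer spots, and that of Emcn was smaller in section 1 and larger in section 2.

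Muscle-rich spots, of which 286 of 296 lay in the Nf1Postn callus, were lower for Vegfc, Angpt2 and Tek, where 26.0% of genes were lower, 5.2% were higher and the median ratio was -0.86. In section 1 these calls rested on 1 UMI each of Vegfc and Angpt2 and 3 of Tek, and the intervals (-7.60 to 0.20, -7.61 to 0.19 and -3.45 to 0.39) included 0. With TMM scaling Vegfc alone passed. Vegfa was at 150 against 121 CPM and 136 against 109 CPM, and with TMM scaling its log2 ratios were 0.87 and 0.89. Within the Nf1Postn callus alone Vegfc and Tek were lower in muscle-rich spots, as were 23.7% of genes, while 1.1% were higher, and Vegfa was at 181 against 88.1 CPM (log2 ratio 1.03, 0.45 to 1.57) and 136 against 119 CPM (0.19, -0.11 to 0.48). Angpt2 was lower in red cell-rich spots, from 2 and 3 UMIs (-1.24, -4.29 to 0.63, and -1.60, -3.88 to -0.04), where 1.39% of genes were lower and 4.36% higher. The Col10a1-rich spots, set against all other spots of both calluses, were again lower for Vegfc and Tek against 4.19% of genes.

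No member passed the rule in the spots rich in bone, osteoclast, granulocyte, macrophage, platelet and megakaryocyte, Schwann cell or fibrous stroma genes. The shares of all genes that were higher and lower were 0.903% and 4.04% for bone, 1.78% and 6.4% for osteoclast, 1.55% and 0.54% for granulocyte, and 2.45% and 1.44% for macrophage genes. They were 3.44% and 1.41% for platelet and megakaryocyte, 2.54% and 2.07% for Schwann cell, and 1.65% and 3.03% for fibrous stroma genes. With TMM scaling, Kdr was higher in bone-rich (0.38 and 0.73) and osteoclast-rich spots (0.45 and 0.63) of both sections. Flt1 was so too, at 0.43 and 0.76 and at 0.45 and 0.85, as was Vegfa, at 0.14 and 0.48 and at 0.26 and 0.65. Angpt1 was lower, at -0.78 and -0.29 in bone-rich and -0.88 and -0.61 in osteoclast-rich spots. Tek and Pecam1 were below 0 in both sections of both classes too, and the other members were mixed in osteoclast-rich spots. In fibrous stroma-rich spots Vegfa was at 66.5 against 125 CPM and 71.2 against 113 CPM, and Flt1 at 69.6 against 115 CPM and 61.0 against 107 CPM. Vegfa was also lower in macrophage-rich spots, by log2 ratios of -0.56 (-0.96 to -0.20) and -0.96 (-1.36 to -0.58). When the genotypes were compared within these 2 classes, 0 of 5 members tested passed in either. Of all genes, 0.153% were higher and 0.489% lower in Nf1Postn in the macrophage-rich spots, and 0.81% and 0.589% in the fibrous stroma-rich spots. In granulocyte-rich spots 9 of 10 members were below 0 in Nf1Postn in both sections, but Cdh5 alone had enough UMIs and it did not pass, where 6.93% of genes were higher and 4.22% lower by the rule. Of the genes tested there, 56.6% were below 0 in both sections, with a median of -0.30.

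**Figure D4:**
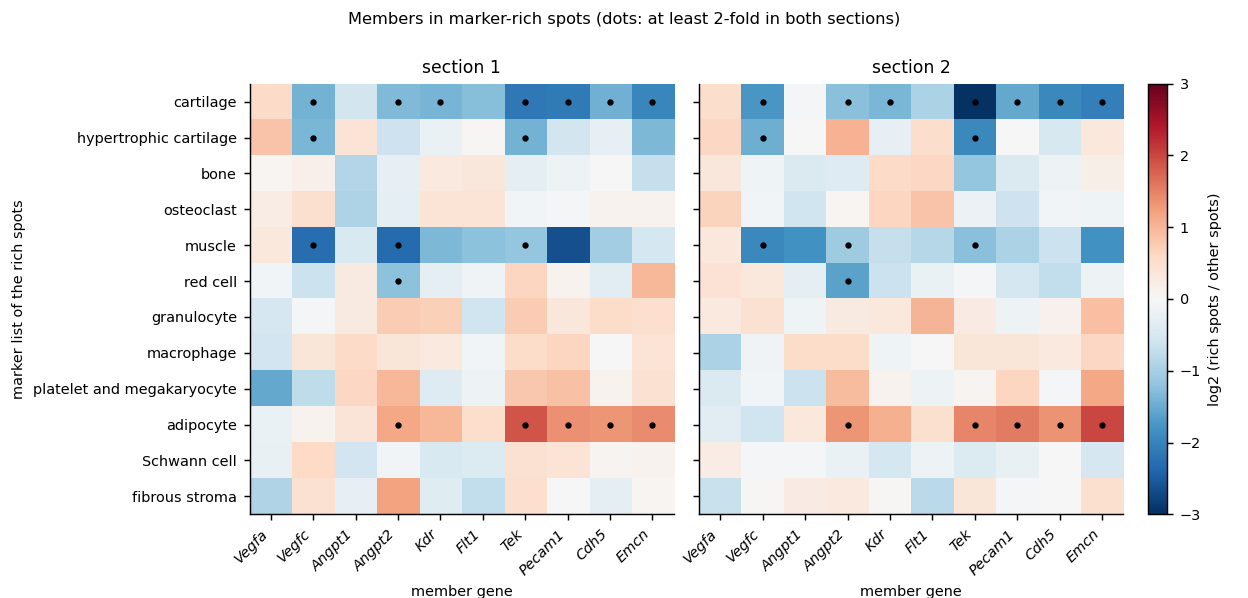
Log2 ratio of each member (x axis) in the spots rich in a marker list (y axis) over all other spots, by colour from -3 to 3, for section 1 (left) and section 2 (right). Dots mark pairs at least 2-fold apart the same way in both sections, 7 lower in the cartilage row and 5 higher in the adipocyte row.

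Finally, the members were compared over square tiles of 500 µm, 123 in section 1 and 132 in section 2, by Spearman's rho of their levels. Tiles of a section share a library and a mouse, differ in depth and tissue, and are not independent, so rho is a description. The likeness of a pair is the lower rho of the 2 sections, and its median over the 45 pairs of members was 0.11. The most alike pair was Pecam1 and Cdh5, at 0.44 in section 1 and 0.50 in section 2, followed by Kdr and Flt1 at 0.43 and 0.42. Tek was alike to Pecam1 (0.54 and 0.33) but not to Flt1 (0.18 and -0.09). Vegfa had rho below 0 in both sections with 7 members, the lowest with Pecam1 (-0.34 and -0.23) and Angpt2 (-0.35 and -0.13), and above 0 with Kdr alone (0.11 and 0.08). The 2 ligands of Tek were weakly alike (0.24 and 0.11).

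**Figure D5:**
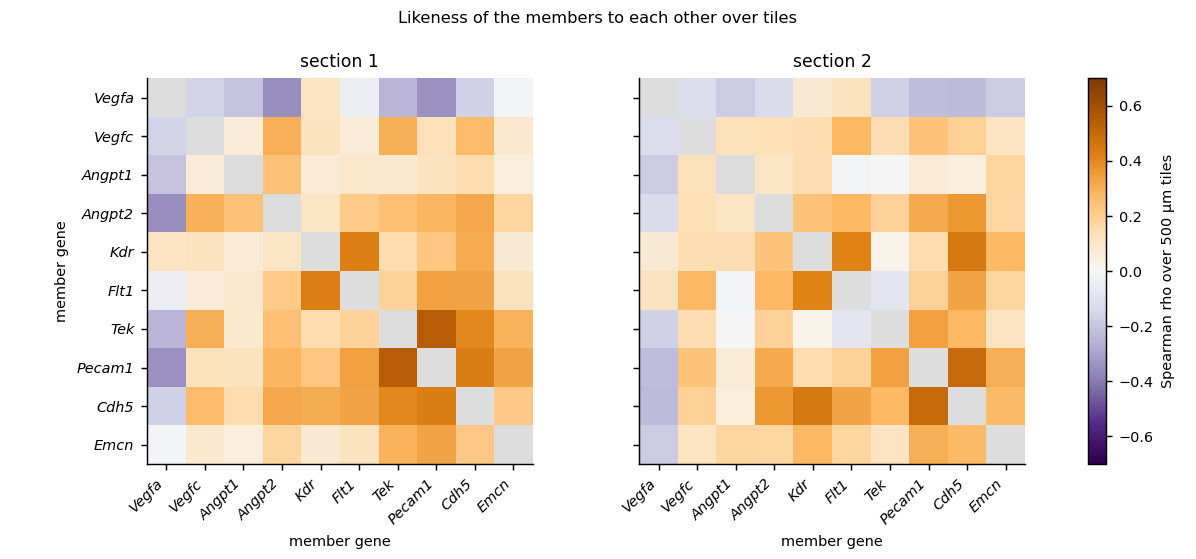
Spearman's rho between members over tiles of 500 µm, by colour from -0.7 to 0.7, for section 1 (left, 123 tiles) and section 2 (right, 132 tiles), with the diagonal in grey. The row of Vegfa is mostly below 0, and Pecam1 with Cdh5 and Kdr with Flt1 are above 0.4 in both sections.

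Over the 5924 genes that reached 500 UMIs in both sections, the 5 most alike to each vessel member included some genes of the pan-endothelial list. Cdh5 was closest to Col4a2, a basement membrane collagen (0.63), then to the endothelial co-receptor Eng (0.58), Arpc3 (0.56), Cd93 (0.55) and Plxnd1 (0.54), and Pecam1 to Egfl7 (0.55), Col4a1 (0.55), Tinagl1 (0.54), Eng (0.52) and Gas6 (0.51). Kdr was closest to Flt1 (0.42), Plvap of fenestrated endothelium (0.41), Ushbp1 (0.40), Sox18 (0.39) and Fam110d (0.38), and Flt1 to Plxnd1 (0.50), Sema6d (0.50), Id3 (0.50), Plvap (0.48) and Lifr (0.47). Plvap was thus in the lists of Kdr, Flt1 and Angpt2 with tiles of 500 µm, and in no member's list with tiles of 1000 µm. Tek was closest to Adamts15 and Vwf (both 0.41), Tinagl1 (0.41), Plpp3 (0.39) and Gbp3 (0.38), and Emcn to Ephb4, a receptor of venous endothelium (0.41), Abi3 (0.36), Tgfbr3 (0.35), Gm13889 (0.34) and Eng (0.34).

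The ligands were alike to different genes. Angpt2 was closest to Col4a2 (0.50), Plvap (0.48), Sh3bgrl (0.45), Tmsb4x (0.44) and Col4a1 (0.44). Angpt1 was closest to Megf6 (0.46), the WNT antagonist Sfrp1 (0.46), Fzd1 (0.42), Matn4 (0.42) and Mest (0.40). Angpt1 thus had no gene of the endothelial list among its 5, whereas Angpt2 had Plvap. Vegfa was closest to Vldlr (0.41), Xpr1 (0.35), Map2k3 (0.32), Srpr (0.31) and Slc8a3 (0.29), and Vegfc to Tmem165 (0.36), H2-D1 (0.35), Gpx1 (0.35), Grn (0.35) and Alox5ap (0.34). With tiles of 1000 µm the 5 of Vegfc, Angpt1, Kdr and Emcn were all others. Those of Vegfc were then Eng, Cbx6, Tmem106a, Tm9sf2 and Notch3. The other members kept part of their 5.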

How the data were processed

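Visium libraries for fixed tissue were measured on 2 sections. Per the labels and methods, the authors aligned reads to mm39 with Space Ranger 1.3.0 and used Partek Flow. The deposited tables hold UMI counts per gene and spot, read here as estimated counts because 9 named genes, none of them a member, had fractional values. The row without a gene name (5.2e-05% of counts) was left out. Deposited labels gave each spot's genotype. Probe counts depend on the probes of each gene, so genes were not compared with each other.

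From these, pooled CPM were computed with exact Poisson 95% intervals, and ratios with exact conditional binomial intervals (SciPy 1.17.1). A gene was called when at least 2-fold apart the same way in both sections with at least 50 UMIs in each, over both groups. For a group without UMIs, 3 counts were used as a floor. No test was run. The named genes were all members, in each list at most the 3 largest called genes, and the 5 genes most alike to each member. The calculations were tested on simulated data. Alternatives were a section left out, spots of at least 1000 UMIs, thinning to 1000 UMIs, means of log2(CPM + 1), TMM factors (edgeR 4.0.16), globin and collagen I left out, no minimum, other thresholds and tile sizes, and others added after seeing the data, among them the comparison of Col10a1-rich with other cartilage-rich spots and the list without Fabp4. The members, lists and thresholds were chosen with earlier results of these data known.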

Additional observations from a re-analysis of the deposited data

Results flagged for a closer look

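Vegfa had log2 ratios of Nf1Postn over control of -0.47 in section 1 and 0.21 in section 2, in opposite directions and with counting intervals that left out 0 in each. The difference between the sections was not tested, since both came from 1 block. In section 1 the Nf1Postn spots had a median of 2030 UMIs and in section 2 of 3239.75.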

How the results depend on the processing

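The intervals cover counting error only, and with 1 mouse per genotype no value separates genotype from animal. For members with few UMIs, such as Emcn and Vegfc, depth limited the comparison. Genotype ratios and calls of genes were taken within each section. Median ratios of gene lists and of all tested genes were taken over both sections pooled, except where a section is named. No paired analysis was possible because no test was run on 2 sections of 1 block.

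The count of members apart between genotypes was 0 with either section left out and in the other alternatives except the mean of log2(CPM + 1) over spots, where 4 were lower (Kdr, Flt1, Pecam1 and Cdh5). That mean takes in spots without a UMI, and Nf1Postn spots were shallower, whose part was not tested. For distance to Col10a1-rich spots the count of 2 (Vegfc and Tek, lower) was 2 to 3 with a section left out. It was 0 after thinning to 1000 UMIs and 0 with the spots up to 250 µm in place of the rich spots. It was 1 with the mean of log2(CPM + 1) (Vegfa, higher) and 1 with the threshold at the 90th percentile (Tek, lower). It was 3 with TMM factors and with a stricter Col10a1 threshold, with Vegfa added as higher. The count of 18 pairs in marker-rich spots was 25 to 27 with a section left out, 7 after thinning, 12 with TMM factors and 11 with the top 10% of spots. These counts can include pairs that are not among the 18. After thinning, Vegfc and Angpt1 were such pairs, higher in platelet and megakaryocyte-rich spots. With TMM factors, Vegfa was such a pair, higher in cartilage-rich spots. Of the 7 lower members in cartilage-rich spots, 0 passed after thinning. With the mean of log2(CPM + 1), Pecam1 alone was lower there, and Vegfa was higher. In adipocyte-rich spots 3 members were higher after thinning and 6 with that mean. With the mean of log2(CPM + 1), members were also higher in classes without a call in the main setting. These were Vegfa, Kdr, Flt1 and Cdh5 in osteoclast-rich, Flt1 in bone-rich and Pecam1 in platelet and megakaryocyte-rich spots. The likeness of members over tiles had a median of 0.11, and 0.19 with tiles of 1000 µm. Thinning keeps fewer UMIs. The cause of the other shifts was not tested.

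For single members, 113 of 130 distance values, 63 of 90 genotype values and 889 of 1080 values in marker-rich spots stayed within their main counting interval.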
